A study of Mus musculus with 8 samples.

Results

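The genes described here are the 3 TGF-β ligands, the 4 latent TGF-β binding proteins, the TGF-β activator thrombospondin 1, and activin A with its antagonist follistatin. They were taken by name: the rows for Tgfb1, Tgfb2, Tgfb3, Ltbp1, Ltbp2, Ltbp3, Ltbp4, Thbs1, Inhba and Fst, which are 10 of the 19150 genes in the count table. The RNA came from the whole lungs of embryonic mice (strain C57BL, day E17.5), and each combination of genotype and sex had 2 libraries: females and males of the control genotype, and females and males of the mutant genotype. Paired values below stand in the order library 1, library 2. The mutants expressed a constitutively active form of TGF-β receptor 1, and the labels place the activation of the pathway in the lung epithelium. The sources used here do not give the promoter that drove the receptor, its allele, or the genotype of the controls beyond the word control. No label says that each library is its own animal; a p-value here therefore reflects the spread among these libraries alone, and part of it may be technical. The series' title asks about TGF-β signalling and a disadvantage of males in a chronic lung disease of preterm infants.

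TGF-β is secreted in a latent form. The mature dimer stays bound to its own propeptide, and a latent TGF-β binding protein (LTBP) ties this complex to fibrillin microfibrils and fibronectin in the matrix. Integrins, proteases or thrombospondin 1 release the active ligand, which then signals through the type 2 and type 1 receptors to SMAD proteins. In the lung the pathway is known for restraining branching, for elastic fibre assembly and for fibrosis. Activin A, a dimer of the chain encoded by Inhba, signals through its own receptors to the same SMAD proteins, and follistatin binds and neutralises it.

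Each library held between 17561012 and 20243205 reads in genes. Epithelial, fibroblast and endothelial markers were abundant in every library, with summed levels of 6209 to 10816, 5083 to 5863 and 1551 to 1808 CPM (counts scaled to the TMM-adjusted library size). All 6, 6 and 5 genes of these lists were above 0. Summed markers of skeletal muscle, oesophagus and skin, liver, thymus and nerve stayed between 0.0538 and 6.79 CPM, for the 6 of their 18 genes that were in the table. Heart muscle markers ran from 14.2 to 86.4 CPM, mesothelial markers from 77.5 to 402 CPM and leukocyte markers from 167 to 458 CPM. Erythroid markers ran from 1762 to 3125 CPM. The targeted receptor gene Tgfbr1 was at 79.7 to 98.6 CPM in controls and 80.5 to 95.9 CPM in mutants, so it does not check the genotype labels, and the sources used here do not say whether reads of the transgene were counted there.

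RefSeq (GRCm38.p6) gave promoter sequence, 250 bases before to 50 after a start site, for 7 of the 10 genes. The promoters of Tgfb1 and Tgfb2 are shown because these ligands differed in level and in how they varied, and those of Ltbp2 and Ltbp4 because these were the binding proteins that passed a test with the replicate number as a block. Capitals mark each match, on either strand, to a search for GGGCGG (the GC box), TATAAA (the TATA box), CACGTG (an E-box), CAGAC (part of the SMAD binding element) or TGACGTCA (the cAMP response element).
Tgfb1 (chr7:25686752-25687051, plus strand): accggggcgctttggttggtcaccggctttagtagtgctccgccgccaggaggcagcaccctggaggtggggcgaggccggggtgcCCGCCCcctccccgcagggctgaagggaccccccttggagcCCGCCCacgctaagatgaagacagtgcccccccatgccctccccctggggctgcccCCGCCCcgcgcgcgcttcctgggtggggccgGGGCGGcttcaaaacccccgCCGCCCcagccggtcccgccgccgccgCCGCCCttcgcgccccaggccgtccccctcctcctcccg
Tgfb2 (chr1:186705940-186706239, minus strand): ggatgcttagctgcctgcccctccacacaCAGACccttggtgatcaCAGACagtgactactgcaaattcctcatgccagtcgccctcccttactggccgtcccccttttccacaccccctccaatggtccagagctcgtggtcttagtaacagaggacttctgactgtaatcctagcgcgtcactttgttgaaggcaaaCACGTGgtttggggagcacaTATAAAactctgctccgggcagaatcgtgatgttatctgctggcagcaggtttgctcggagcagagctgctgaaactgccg
Ltbp2 (chr12:84876442-84876741, minus strand): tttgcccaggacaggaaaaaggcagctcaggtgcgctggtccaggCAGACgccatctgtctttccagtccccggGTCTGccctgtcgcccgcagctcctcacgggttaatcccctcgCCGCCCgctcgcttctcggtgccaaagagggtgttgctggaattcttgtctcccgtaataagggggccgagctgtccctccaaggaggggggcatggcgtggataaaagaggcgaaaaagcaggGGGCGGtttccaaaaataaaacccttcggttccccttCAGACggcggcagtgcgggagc
Ltbp4 (chr7:27337563-27337862, minus strand): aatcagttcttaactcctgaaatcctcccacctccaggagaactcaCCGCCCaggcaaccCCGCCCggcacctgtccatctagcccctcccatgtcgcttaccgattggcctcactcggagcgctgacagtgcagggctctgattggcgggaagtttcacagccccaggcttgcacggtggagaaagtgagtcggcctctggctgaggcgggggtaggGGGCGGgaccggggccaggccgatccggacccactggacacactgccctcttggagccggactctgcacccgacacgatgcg
The Tgfb1 window held 6 GC boxes, none of the other 4 motifs and 77.0% G and C. The Tgfb2 window held no GC box, 1 TATA box, 1 E-box and 2 matches to CAGAC, with 54.3% G and C. The Ltbp2 window held 3 matches to CAGAC and 2 GC boxes, and this Ltbp4 window held 3 GC boxes and no CAGAC. The windows at 2 other RefSeq start sites of Ltbp4, which overlap each other, held 7 and 9 GC boxes and no CAGAC. Of 32817 promoters in the same table, 35.6% held a GC box, 13.6% a TATA box, 7.15% the E-box, 49.6% CAGAC and 1.79% the cAMP response element, so CAGAC is a common match. The median promoter was 52.7% G and C. A match is a description of these letters and not a binding site.

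The levels of the 10 genes spanned a wide range in the embryonic lung. On the deposited RPKM scale (reads scaled by gene length and depth), Thbs1 was highest at 69.3 ± 13.5, followed by Ltbp3 at 65.8 ± 14.8, Tgfb2 at 15.6 ± 2.21 and Tgfb3 at 13.9 ± 2.03 (SD, n = 8 libraries each). Ltbp2 stood at 7.12 ± 1.68, Tgfb1 at 5.85 ± 0.666, Ltbp4 at 4.41 ± 0.561 and Ltbp1 at 2.93 ± 0.322 RPKM. Inhba and Fst were the lowest, at 0.283 ± 0.0873 and 0.220 ± 0.0748 RPKM. Neighbours in this order whose ranges over libraries overlapped were Thbs1 and Ltbp3, Tgfb2 and Tgfb3, Ltbp2 and Tgfb1, Tgfb1 and Ltbp4, and Inhba and Fst.

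The order depended on the length used. The deposited lengths were within 10% of the exons summed over all GENCODE M21 transcripts in 83.0% of matched genes, and within 10% of the merged exon length in 30.0%. In such a sum, an exon shared by several transcripts counts repeatedly. Ltbp4 had a deposited length of 27031 bases against 6463 merged exon bases, and Ltbp2 26075 against 8184. Per kilobase of merged exons, Ltbp2 stood at 22.7 ± 5.41 and Ltbp4 at 18.5 ± 2.47 on a scale otherwise like RPKM, above Tgfb3 at 13.9 ± 1.97 (SD, n = 8). Tgfb2 stood at 29.7 ± 4.21, Tgfb1 at 7.20 ± 0.857 and Ltbp1 at 7.04 ± 0.744 on that scale. Thbs1 at 74.5 ± 14.1 and Ltbp3 at 37.9 ± 8.54 kept the first place and the second on both scales. Ltbp3, Inhba and Fst had deposited lengths shorter than the merged exons (5218 against 9069 bases for Ltbp3), so neither scale is exact. Differences between libraries for 1 gene do not depend on its length.

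**Figure D1:**
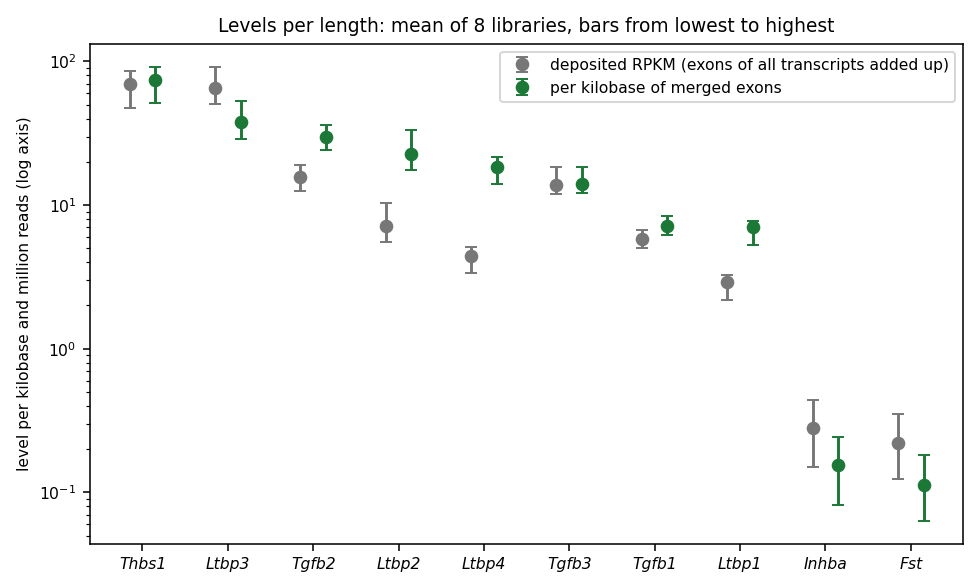
Level of each gene per length and depth on a log axis, as the mean of 8 libraries with bars from the lowest to the highest library. Grey points use the deposited RPKM and green points the merged GENCODE M21 exons; Ltbp2 moves from 7.12 to 22.7 and Ltbp4 from 4.41 to 18.5, while Thbs1 stays highest.

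On the mean of the 8 libraries, Tgfb2 made up the largest share of the ligands. It held 44.1% ± 4.77 of the summed deposited RPKM of the 3 ligands, Tgfb3 39.3% ± 4.48 and Tgfb1 16.6% ± 2.14 (SD, n = 8). With merged exons the shares were 58.3% ± 4.69, 27.5% ± 3.96 and 14.2% ± 1.98. The Tgfb2 share of deposited RPKM was 47.3% ± 2.47 in the 4 controls and 41.0% ± 4.55 in the 4 mutants, and the Tgfb3 share 36.2% ± 0.309 and 42.3% ± 4.70, given here as a description. By deposited RPKM, Tgfb3 stood above Tgfb2 in both mutant males (47.5% against 36.8% and 44.6% against 40.3%) and in mutant female 1 (40.2% against 39.5%), whereas with merged exons Tgfb2 stood above Tgfb3 in all 8 libraries. Of the LTBPs, Ltbp3 held 81.7% ± 1.88 of deposited RPKM, but 43.7% ± 3.23 with merged exons, where Ltbp2 held 26.2% ± 2.25, Ltbp4 21.7% ± 2.62 and Ltbp1 8.41% ± 1.82.

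**Figure D2:**
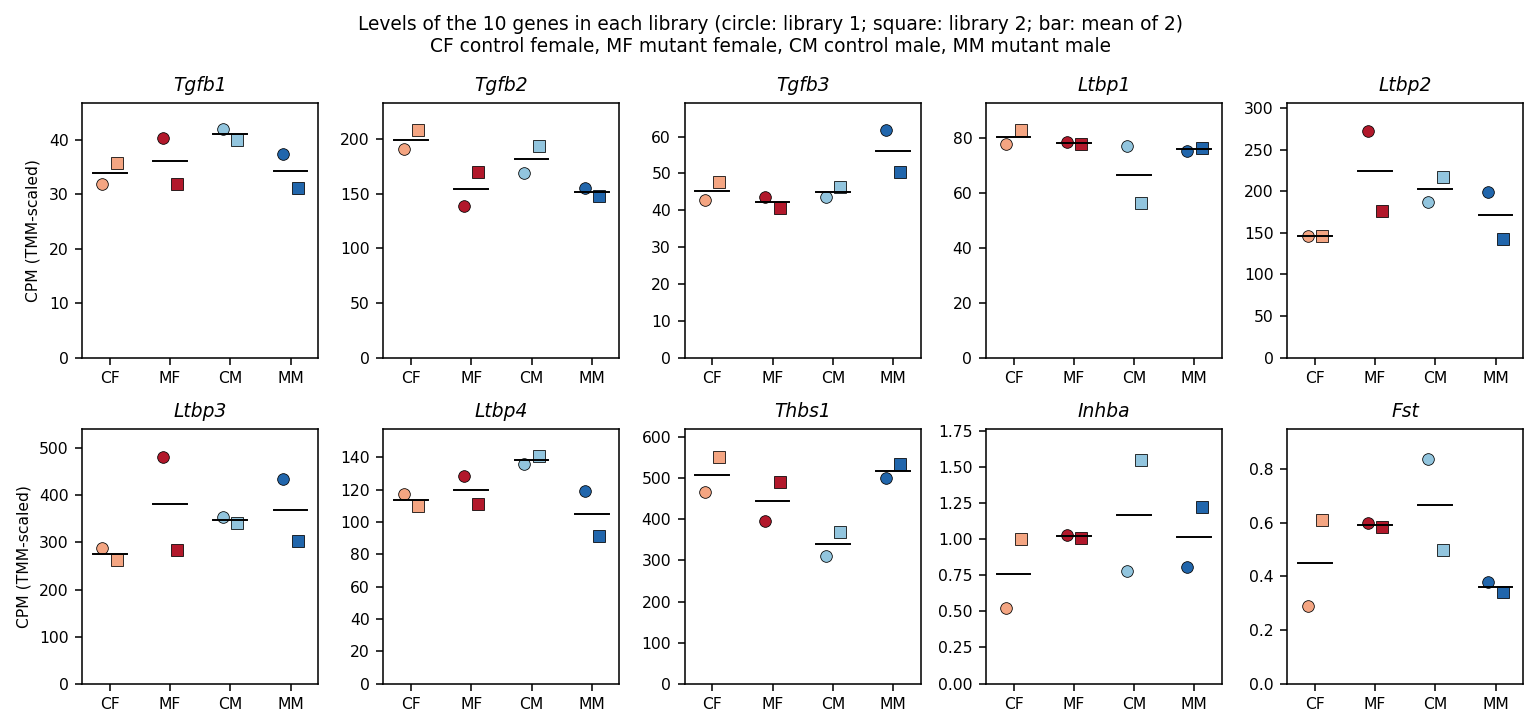
Level of each of the 10 genes in CPM (linear axis from 0) in every library, by group, with circles for library 1, squares for library 2 and a bar for the mean of 2 libraries. Thbs1 is lowest in the control males (312 and 368 CPM), Tgfb2 is lower in mutants than in controls within each sex, and Ltbp3 and Ltbp2 spread widely between the 2 mutant libraries of a sex.

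Over both sexes together, mutants were set against controls with sex as a term in the model. Tgfb2 had the smallest p of the 10 genes. The control females were at 191 and 209 CPM and the control males at 170 and 194. The mutant females were at 139 and 170 CPM and the mutant males at 155 and 148. Both mutant libraries lay below both controls within each sex, but the highest mutant (mutant female 2) and the lowest control (control male 1) were at nearly the same level. Tgfb2 encodes the ligand needed for normal development of heart, lung and skeleton in the mouse. The controls averaged 191 ± 16.1 CPM and the mutants 153 ± 13.3 (SD, 4 libraries of each genotype), a log2 change of -0.32 ± 0.09 (SE; edgeR quasi-likelihood adjusted p = 0.656). In the authors' deposited table the log2 change of Tgfb2 was -0.31 with a false discovery rate of 0.00366, where 775 genes (4.05%) were under 0.05 and no other of the 10 genes was. Their rate came from a likelihood ratio statistic and not from the quasi-likelihood test. The likelihood ratio test run here gave Tgfb2 an adjusted p of 0.304. Mutants lay below controls without overlap in both sexes in 481 of 18164 genes (2.65%), and Tgfb2 was the 1 of the 10 genes among them.

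The other 9 genes were between -0.25 and 0.28 on the log2 scale over both sexes. Ltbp3 stood at 0.28 ± 0.18, Thbs1 at 0.21 ± 0.17, Ltbp2 at 0.19 ± 0.21, Tgfb3 at 0.11 ± 0.11 and Ltbp1 at 0.07 ± 0.11. Ltbp4 stood at -0.16 ± 0.12, Tgfb1 at -0.08 ± 0.12, Inhba at 0.09 ± 0.33 and Fst at -0.25 ± 0.38. Of the 10 genes, 0 passed the quasi-likelihood test of edgeR, as did 0 of 18164 genes (0%) in all. Each of the other fits also called 0 of the 10, where DESeq2 called 0.484% of all genes, edgeR's likelihood ratio test 0.435%, the fit with the replicate number as a block 0.0165% and limma-voom 0%. At an unadjusted p under 0.05, 1 of the 10 passed, against 5.84% of all genes. The median log2 change was 0.08 over the 10 genes and 0.01 over all genes.

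By sex, in 8 of the 10 genes the log2 change had a different sign in females and in males, against 58.4% of all 18164 genes. The exceptions were Tgfb2, negative in both sexes, and Ltbp3, positive in both. Of the 8, Thbs1 was the 1 gene that kept its sign in each sex in every fit without 1 library, with and without the block. The female and male comparisons share no library. The plot of changes by sex shows where the intervals of 1 SE separate.

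**Figure D3:**
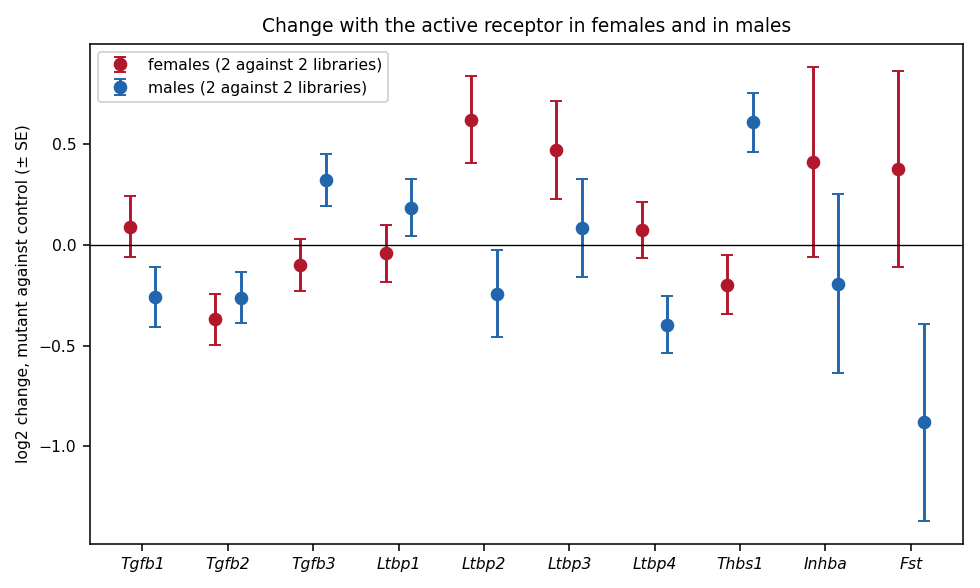
Log2 change of mutant against control lungs with its SE (edgeR, 2 against 2 libraries), in females (red) and in males (blue). Thbs1 is at -0.20 in females and 0.61 in males, Ltbp2 at 0.62 and -0.24, and Tgfb2 below 0 in both.

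In males, Thbs1 had the smallest p of the 10 genes. Thbs1 encodes thrombospondin 1, a matrix glycoprotein that binds the TGF-β propeptide and can activate the ligand. It was at 312 and 368 CPM in the control males and 500 and 536 CPM in the mutant males, and at 466 and 552 in control females and 396 and 492 in mutant females. The control males were thus the lowest of the 8 libraries, and the mutant males lay within the range of the control females. The log2 change in males was 0.61 ± 0.15 (SE, edgeR quasi-likelihood adjusted p = 0.0873), just outside the threshold of 0.05. Thbs1 rose with the replicate number as a block (0.61 ± 0.09, adjusted p = 0.000739), in DESeq2 (adjusted p = 0.00983) and in the likelihood ratio test (0.0106), and did not pass in limma-voom (0.0849). In fits that left out 1 library the log2 change was 0.52 to 0.70 with the block and 0.49 to 0.73 without it. Only the fits without a male library bear on this range. Leaving out a female library kept the value at 0.61, since no female library is in this comparison.

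Beside Thbs1 the marker lists moved as follows in males. Platelet and megakaryocyte markers, whose cells store thrombospondin 1, summed to 21.4 and 17.1 CPM in the control males and 24.0 and 24.5 CPM in the mutant males, with 4 of 4 genes present and 0 called. Cartilage markers went from 10.6 and 21.3 to 56.4 and 54.2 CPM, with 4 of 7 genes in the table and 2 of 3 tested genes called higher. Smooth muscle markers went from 694 and 687 to 495 and 564 CPM (1 of 6 called lower) and epithelial markers from 10816 and 8223 to 7637 and 6209 CPM (1 of 6 called lower). Mesothelial markers went from 402 and 213 to 131 and 77.5 CPM (1 of 4 called lower, although 3 of 4 had a positive change), and fibroblast markers stayed between 5083 and 5577 CPM. Early response genes, a list chosen after the values were seen because handling can induce Thbs1, summed to 302 and 275 CPM in the control males and 231 and 207 CPM in the mutant males, the opposite direction from Thbs1. With the replicate block, 5 of 6 epithelial markers were called lower and 1 higher, 4 of 6 smooth muscle markers lower, 3 of 3 tested cartilage markers higher, 1 of 6 fibroblast markers higher, 1 of 4 mesothelial markers lower, 4 of 8 tested early response genes lower and 0 of 4 platelet and megakaryocyte markers, where 7.30% of all genes were called higher and 9.43% lower. The part of cell makeup or handling in these results was not tested, and in whole lung fewer cells of a type and less RNA per cell cannot be told apart.

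Among the latency proteins, Ltbp4 was the 1 that passed in males, and with the replicate block only. Ltbp4 encodes the LTBP that also organises elastic fibres with fibulin 5 and whose loss in mice disrupts lung septation. It was at 136 and 141 CPM in the control males and 119 and 91.1 CPM in the mutant males. The male groups did not overlap. Control females were at 118 and 110 CPM and mutant females at 129 and 111, so mutant male 2 was the lowest of the 8 libraries. The log2 change in males was -0.40 ± 0.14 (SE, edgeR quasi-likelihood adjusted p = 0.186), and Ltbp4 fell with the replicate block (-0.41 ± 0.10, adjusted p = 0.0193). With control male 2 left out the adjusted p was 0.131, and with mutant male 2 left out 0.256, so either library ended that call.

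The remaining LTBPs did not pass in males in either fit. Ltbp2, an LTBP that binds fibrillin but not latent TGF-β, was at 187 and 218 CPM in the control males and 199 and 143 CPM in the mutant males, so the groups overlapped (-0.24 ± 0.21, adjusted p = 0.569). Ltbp3, which is needed for skeletal and tooth development, was at 354 and 341 CPM in the control males and 434 and 303 CPM in the mutant males (0.08 ± 0.24, 0.876). Ltbp1, the founding member that carries latent TGF-β1, was at 76.9 and 56.4 CPM in the control males and 75.3 and 76.3 CPM in the mutant males (0.19 ± 0.14, 0.506). Control male 2 was the low library for Ltbp1, since the other 7 lay between 75.3 and 83.0 CPM, and without it the log2 change was -0.021. In these genes the spread within a group was as large as the difference.

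The ligands in males had changes of both signs, none of them called. Tgfb3, the isoform needed for palate closure and lung maturation in the mouse, was at 43.5 and 46.3 CPM in the control males and 61.8 and 50.4 CPM in the mutant males. The mutant males were the 2 highest of all 8 libraries for Tgfb3, the others lying between 40.7 and 47.7 CPM. The log2 change was 0.32 ± 0.13 (adjusted p = 0.225; 0.0796 with the block). Tgfb1, the isoform of immune control and fibrosis, was at 42.0 and 40.0 CPM in the control males and 37.5 and 31.1 CPM in the mutant males (-0.26 ± 0.15, adjusted p = 0.380). Tgfb2 stood at -0.26 ± 0.13 (adjusted p = 0.299; 0.0914 with the block).

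In males 235 of 18164 genes (1.29%) were called by the edgeR quasi-likelihood test, 0 of them among the 10, with 3 of 10 at an unadjusted p under 0.05 against 19.3% of all genes. With the replicate block it called 16.7% of all genes and 2 of the 10, Thbs1 higher (7.30% of all genes were called higher) and Ltbp4 lower (9.43%). DESeq2 (4.71% of all genes) and the likelihood ratio test (6.03%) called 1 of the 10, Thbs1, and limma-voom (1.01%) called 0. For Inhba and Fst in males DESeq2 gave no adjusted p, and they count as not called. Control and mutant males did not overlap in 6 of the 10 genes, 2 above (Tgfb3 and Thbs1) and 4 below (Tgfb1, Tgfb2, Ltbp4 and Fst), where 52.4% of all genes did not overlap, 26.9% above and 25.5% below. These shares are close to those of all genes.

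In females the order of effects was different. Ltbp2 was at 146 and 146 CPM in control females 1 and 2 and 272 and 177 in mutant females 1 and 2, so the mutants lay above the controls and apart from each other. Ltbp3 was at 289 and 262 CPM in control females and 481 and 283 in mutant females, where mutant female 2 lay between the controls. The log2 changes were 0.62 ± 0.22 for Ltbp2 and 0.47 ± 0.24 for Ltbp3 (edgeR quasi-likelihood adjusted p = 1 each; 0.399 and 0.555 with the block). Tgfb2 stood at -0.37 ± 0.13 (adjusted p = 1; 0.366 with the block), and Thbs1 at -0.20 ± 0.15. Without mutant female 1 the log2 change was 0.28 for Ltbp2 and 0.038 for Ltbp3, and without mutant female 2 it was 0.90 and 0.80. Summed epithelial markers were at 8782 and 6424 CPM in the control females and 8377 and 7035 in the mutant females, and their part in the result was not tested.

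Tgfb1 was at 31.9 and 35.8 CPM in control females 1 and 2 and 40.3 and 31.8 in mutant females, a log2 change of 0.09 ± 0.15. Tgfb3 (42.8 and 47.7 against 43.7 and 40.7 CPM) stood at -0.10 ± 0.13, Ltbp1 (77.8 and 83.0 against 78.5 and 77.6 CPM) at -0.04 ± 0.14 and Ltbp4 at 0.07 ± 0.14. For these genes the libraries of control and mutant females overlapped or nearly touched. In females 0 of 18164 genes (0%) and 0 of the 10 passed the edgeR quasi-likelihood test. At an unadjusted p under 0.05, 2 of the 10 passed (Tgfb2 and Ltbp2), against 1.60% of all genes, and the other fits called 0 of the 10 (all genes: DESeq2 0.033%, likelihood ratio test 0.044%, block 0.0771%, limma-voom 0%). Mutant females did not overlap with control females in 3 of the 10 genes (Ltbp2 and Inhba above, Tgfb2 below), against 21.9% of all genes.

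Whether the effect differed between the sexes was tested directly. The effect on Thbs1 was 0.81 ± 0.21 higher in males than in females on the log2 scale (edgeR quasi-likelihood adjusted p = 0.338), and passed with the block (0.81 ± 0.12, adjusted p = 0.00198) and in DESeq2 (0.0498). With the block it passed in each of 8 fits without 1 library (0.000713 to 0.024). The effect on Ltbp2 was lower in males by a log2 difference of -0.86 ± 0.30 (adjusted p = 0.368; 0.035 with the block), and the blocked call was lost in 5 of 8 fits without 1 library, with adjusted p = 0.183 without control female 1, 0.0778 without control female 2, 0.0726 without control male 2, 0.226 without mutant female 1 (-0.57 on the log2 scale) and 0.121 without mutant male 2. Ltbp4 stood at -0.47 ± 0.20 (0.388; 0.0629 with the block), Tgfb3 at 0.42 ± 0.18 (0.397), Ltbp3 at -0.39 ± 0.34, Tgfb1 at -0.35 ± 0.21, Ltbp1 at 0.23 ± 0.20 and Tgfb2 at 0.11 ± 0.18. The test without the block called 0 of the 10 and 0% of all genes, with 4 of 10 at an unadjusted p under 0.05 against 12.5% of all genes. With the block it called 2 of the 10 and 9.33% of all genes. DESeq2 called 1 of the 10 (1.04% of all genes), and limma-voom (0%) and the likelihood ratio test (1.08%) called 0.

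**Figure D4:**
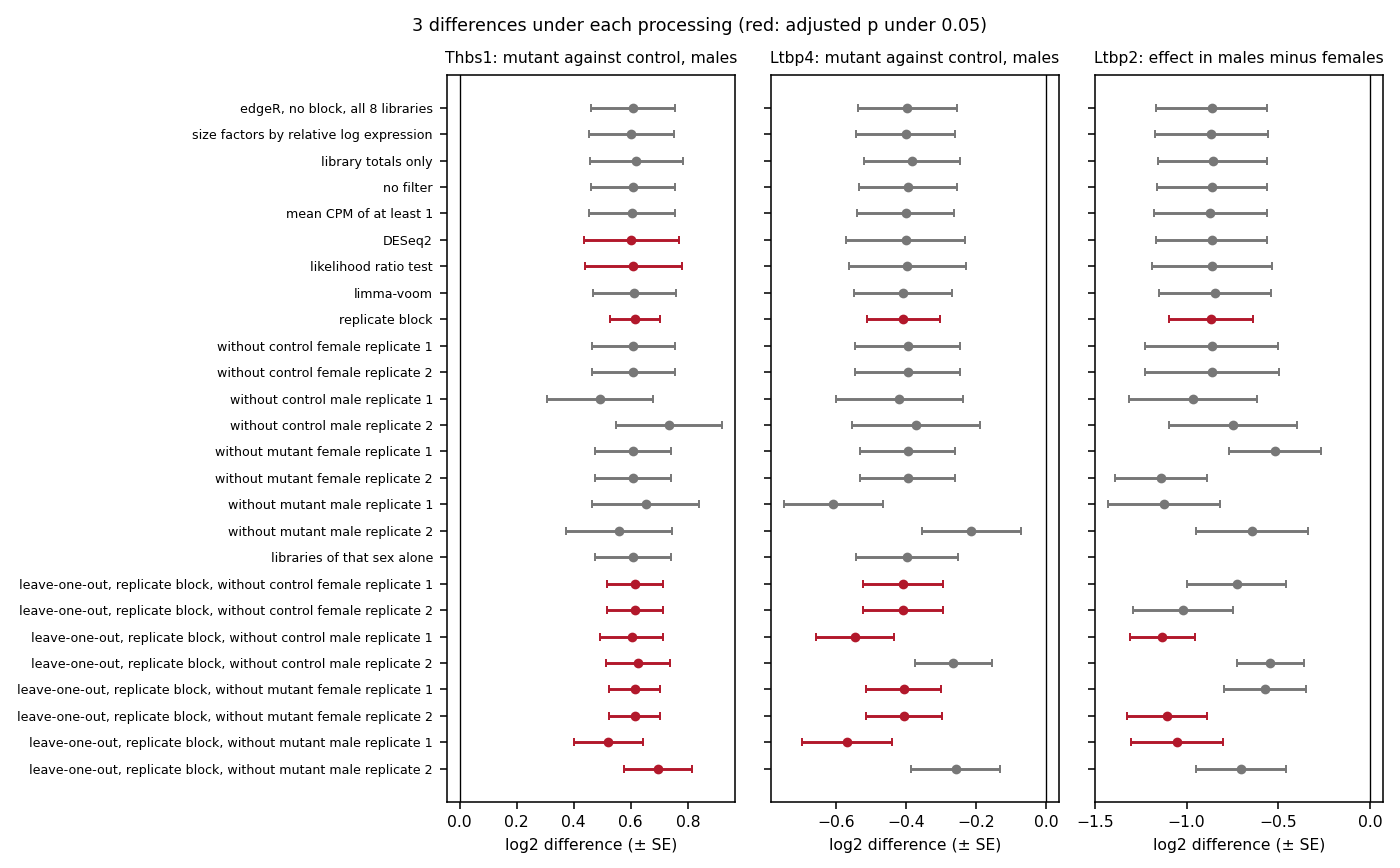
Log2 difference with its SE for Thbs1 and Ltbp4 (mutant against control males) and Ltbp2 (effect in males minus effect in females) under each processing, 1 row per fit, red where the adjusted p is under 0.05. The Thbs1 value is 0.61 in the fit of all libraries and is called with the replicate block, DESeq2 or the likelihood ratio test, while the Ltbp2 value shrinks to -0.52 without mutant female 1.

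Sex was also compared within each genotype. Thbs1 stood lower in control males than in control females (340 ± 40.1 against 509 ± 61.0 CPM, SD, n = 2 each), a log2 difference of -0.58 ± 0.15 (edgeR quasi-likelihood adjusted p = 0.602; 0.00678 with the block, under which it fell). The blocked call was lost without control female 1 (0.112) or control female 2 (0.12). Control males lay above control females without overlap for Tgfb1 (0.28 ± 0.15), Ltbp2 (0.47 ± 0.22), Ltbp3 (0.33 ± 0.24) and Ltbp4 (0.28 ± 0.14), and below for Thbs1 and Ltbp1 (-0.27 ± 0.14). That is 6 of the 10 genes, where 43.9% of all genes did not overlap. The test called 0 of the 10 and 7 of 18164 genes (0.0385%), with 1 of 10 at an unadjusted p under 0.05 against 7.78% of all genes, and the block called 1 of the 10 and 3.88% of all genes. DESeq2 (0.0551% of all genes), limma-voom (0.044%) and the likelihood ratio test (0.105%) called 0 of the 10.

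Between mutant males and mutant females, Thbs1 stood at 0.22 ± 0.15 (adjusted p = 0.946) and Tgfb3 at 0.41 ± 0.13 (0.769; 0.11 with the block). The edgeR quasi-likelihood test called 0 of the 10 and 0.0385% of all genes, with 1 of 10 at an unadjusted p under 0.05 against 5.35%. The block (1.81% of all genes), DESeq2 (0.44%), the likelihood ratio test (0.495%) and limma-voom (0.0385%) called 0 of the 10 as well. The median absolute log2 difference of the 10 genes was 0.31 in controls and 0.13 in mutants, against 0.18 and 0.14 over all genes. Both sex comparisons share libraries with the genotype comparisons above, so these values stand side by side and are not independent.

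Inhba and Fst were too low for firm statements. Inhba, the activin A chain, had 9 and 18 reads in the control females and 14 and 28 in the control males, and mutant females had 19 and 19 reads while mutant males had 15 and 25. Fst, the activin antagonist, had 5 and 11, 15 and 9, 11 and 11, and 7 and 7 reads in the same order. In total Inhba had 69 reads in controls and 78 in mutants, a ratio of 1.06 per read sequenced (95% exact interval 0.753 to 1.48, covering counting error only), and Fst 40 and 36, a ratio of 0.840 (0.520 to 1.35). These intervals hold the ratios compatible with the pooled reads. They are not limits of detection, and they leave out the spread between libraries. The largest genotype change within a sex was that of Fst in males, at -0.88 ± 0.49 on the log2 scale (adjusted p = 0.363), and the groups there did not overlap. Inhba per Fst ran from 0.626 to 2.39 by deposited RPKM, and both extremes were in males (control male 1 and mutant male 2). Summed heart muscle markers (3 of 4 genes in the table) varied alongside Inhba, with 14.2 and 76.2 CPM for control females, 37.9 and 60.9 for control males, 57.5 and 72.6 for mutant females, and 22.7 and 86.4 for mutant males. Both were lowest in control female 1, and the part of heart tissue in the Inhba values was not tested.

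The partners of these genes were followed in 4 lists. Of 12 partners of the latent complex and of microfibrils, all tested, 0 were called over both sexes, in females or in males (medians -0.03, 0.02 and -0.04). Adamtsl2, a secreted protein that binds LTBP1 and is mutated in a human growth disorder, was at 188 and 106 CPM in the control males and 53.4 and 32.6 CPM in the mutant males (-1.78 ± 0.43, adjusted p = 0.0896; 1.04e-06 with the block). Fn1, fibronectin, on which LTBP1 is deposited, was at 2855 and 1657 CPM in the control males and 1198 and 1254 CPM in the mutant males (-0.88 ± 0.26, 0.136; 0.00402 with the block). Mfap4, a microfibril glycoprotein, stood at -0.46 ± 0.16 in males (0.177; 0.00962 with the block). With the block 3 of the 12 fell and 0 rose in males (all genes: 9.43% lower and 7.30% higher), these being Adamtsl2, Fn1 and Mfap4. Fbln5, which tethers elastin to cells, stood at 0.48 ± 0.19 over both sexes (0.816). In females it was at 138 and 111 CPM in controls and 263 and 175 in mutants, and it rose there with the block (0.81 ± 0.22 without it, adjusted p = 1; 0.00579 with it).

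Of 19 activators, 18 were tested and 0 were called over both sexes, in females or in males (medians 0.02, 0.07 and 0.06). Mmp2, a gelatinase, was at 271 to 326 CPM in the 4 controls and 343 to 379 CPM in the 4 mutants, all above the controls, as in 1.65% of all genes. Its log2 change was 0.29 ± 0.08 over both sexes (adjusted p = 0.635) and 0.40 ± 0.10 in males (0.0991; 0.00998 with the block). Mmp9, another gelatinase, stood at -1.14 ± 0.24 over both sexes (0.562), at levels of 0.477 to 1.67 CPM. Cd36, a receptor of thrombospondin 1, was at 364 and 219 CPM in the control males and 158 and 126 CPM in the mutant males (-1.04 ± 0.25, 0.0904; 0.000215 with the block). With the block 4 of the 18 rose and 3 fell in males, against 7.30% and 9.43% of all genes.

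Of 8 TGF-β binding proteins and co-receptors, 1 rose in males and 0 were called over both sexes or in females (medians 0.05 over both sexes, 0.02 in females and 0.01 in males). In males 1.29% of all genes were called by this test. With the block 3 of the 8 rose and 1 fell in males, against 7.30% and 9.43% of all genes. The gene that rose without the block was Fmod, fibromodulin, a small matrix proteoglycan that binds TGF-β and collagen. It was at 72.7 and 127 CPM in the control males and 297 and 237 CPM in the mutant males, and at 124 and 150 in control females and 189 and 169 in mutant females. All 4 mutants thus lay above all 4 controls, as in 1.65% of all genes. The log2 change in males was 1.42 ± 0.24 (edgeR quasi-likelihood adjusted p = 0.0370; 0.000637 with the block), and the adjusted p rose to 0.159 with control male 1 left out, 0.125 with mutant male 1 left out and 0.204 with mutant male 2 left out, ending the call. In males, cartilage markers moved with Fmod, as given above. In females they did not, with sums of 26.4 and 38.1 CPM in controls and 21.2 and 28.8 CPM in mutants. The part of cartilage in the Fmod result was not tested. Bgn, biglycan, stood at -0.42 ± 0.11 in males (0.117; 0.00562 with the block) and Cd109, a TGF-β co-receptor, at 0.48 ± 0.19 (0.213; 0.00504 with the block). Of 13 genes of the activin and follistatin arm, 9 were tested and 0 were called (medians 0.03, 0.18 and -0.06 over both sexes, in females and in males). Fstl3, a follistatin-like antagonist, was at 2.94 to 4.82 CPM in controls and 5.08 to 7.76 in mutants. All its mutants lay above all controls, as in 1.65% of all genes (0.55 ± 0.21 over both sexes, adjusted p = 0.807). Inhbb, the chain of activin B, stood at -1.07 ± 0.43 in males (0.230; 0.0134 with the block) and Acvr1c, a type 1 receptor, at 0.49 ± 0.26 (0.343). In all genes the median log2 change was 0.01 over both sexes, -0.0023 in females and 0.01 in males.

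The 2 libraries of each group were also compared with each other. Thbs1 was higher in library 2 than in library 1 in 4 of 4 groups, by a mean log2 difference of 0.22, and Ltbp3 was lower in library 2 in 4 of 4 groups, by a mean of -0.37. Ltbp3 differed most in the mutants, by -0.76 in females and -0.52 in males, against -0.14 and -0.05 in controls. Ltbp2 followed it in the mutants (-0.62 and -0.48) but not in the controls (-0.0018 and 0.22). The share of all genes with the same sign in 4 of 4 groups was not computed, so these counts are a description only. The labels do not say what the number marks.

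**Figure D5:**
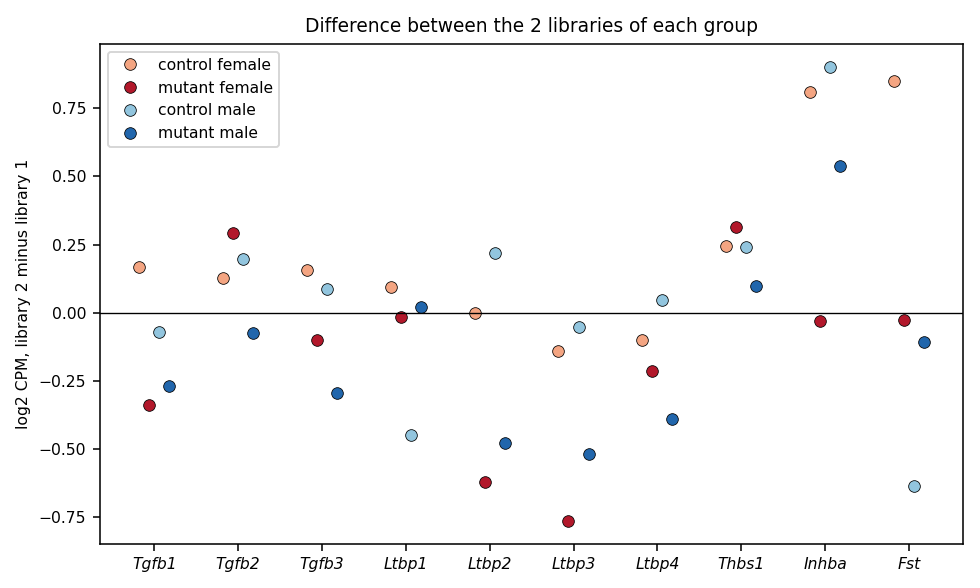
Difference in log2 CPM between library 2 and library 1 of each group, 1 point per group, for the 10 genes. Thbs1 is above 0 in 4 of 4 groups and Ltbp3 below 0 in 4 of 4, with the mutant points at -0.76 and -0.52.

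Across the 8 libraries, which share these groups and numbers, the members fell into a few related patterns, given as descriptions. Thbs1 ran opposite to Ltbp4 (Pearson r = -0.83) and to Tgfb1 (-0.77), Ltbp4 ran with Tgfb1 (0.83), and Ltbp2 with Ltbp3 (0.85). Of 13656 other named genes of at least 1 CPM, those most like Tgfb1 were Myo18a, Trim26 and Zfp710 (highest r = 0.99), those most like Tgfb2 included Cdh8 and Trim2 (0.97), and those most like Tgfb3 were Ahrr, Nptx1 and Pcdhb6 (0.97). Tubb1, B3galnt2 and Triap1 were most like Ltbp1 (0.94), Stat5a, Fam234a and Iffo1 most like Ltbp2 (0.98), Adamts10, Smad7 and Dhtkd1 most like Ltbp3 (0.98), and Nipal3, Bcl9l and Agap3 most like Ltbp4 (0.99). Gmds, Tspan3 and Rfc4 were most like Thbs1 (0.99), Tnni3, Tssk4 and Popdc2 most like Inhba (0.95), and Trabd, Mon1b and Gca most like Fst (0.93). The search gave an r of 0.93 or more for each of the 10 members.

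The 10 genes lie on 7 chromosomes of GRCm38, by Ensembl ID in GENCODE M21: Tgfb1 on chromosome 7 (25687002 to 25705077, plus strand), Tgfb2 on chromosome 1 (186622792 to 186705989, minus strand), Tgfb3 on chromosome 12 (86056745 to 86079041, minus strand) and Thbs1 on chromosome 2 (118111876 to 118127133, plus strand). Ltbp4 (ENSMUSG00000040488) is on chromosome 7 as well (27305136 to 27337692, minus strand) and Ltbp2 (ENSMUSG00000002020) on chromosome 12 (84783212 to 84876532, minus strand). Ltbp1 is on chromosome 17 (75005568 to 75392512, plus strand), Ltbp3 on chromosome 19 (5740904 to 5758532, plus strand), and both Inhba (16011851 to 16031621, plus strand) and Fst (114452290 to 114458951, minus strand) on chromosome 13. Exons of an opposite-strand gene in the count table, D030025P21Rik, overlap 764 exon bases of Ltbp2 and had 137 reads in all 8 libraries. The sources used here do not give the strand setting of the counting, so reads in those bases may not be told apart.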

How the data were processed

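Whole-lung RNA was sequenced in 8 libraries (4 groups of 2). The table deposited by the authors holds 19150 genes: raw counts and RPKM of every library, and their comparison of mutant with control lungs (log2 fold change, mean log2 CPM, the likelihood ratio statistic as a score, p-value and its false discovery rate). Per the submitters' processing notes, which give no roles or order, the tools were edgeR 3.16.5, HTSeq 0.6.1p2, STAR 2.5.2b, Trimmomatic 0.35 and cutadapt 1.13; the sources used here do not give build, annotation or strand setting. Genes with totals under 28 reads, the minimum in the table, are not analysed here.

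The deposited counts were fitted in edgeR 4.0.16 (R 4.3.3) with TMM factors and a minimum count of 10 (18164 genes tested), by the quasi-likelihood test with Benjamini-Hochberg adjustment over all tested genes and a threshold of 0.05. Genotype over both sexes used a term for sex; the other comparisons used 4 group means. The female and male comparisons share no library, nor do the comparisons of sex in controls and in mutants; the other pairs of comparisons share libraries. Tables and figures used Python 3.11.15, pandas 2.3.3 and matplotlib 3.10.9. The edgeR quasi-likelihood fit without a block was tested on simulated counts, and the other fits were not. Alternatives were other scalings, filters, DESeq2 1.42.0, limma-voom 3.58.1, the likelihood ratio test, a replicate block, each library left out, and other fits. DESeq2 gave no adjusted p for Fst over both sexes. It also gave none for Inhba and Fst in males, for the difference between the sexes and for sex in mutants. Genes without an adjusted p count as not called in the DESeq2 shares. After the data were seen, the block with each library left out, the merged exon lengths and the early response list were added.

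Same-numbered libraries deviated together in 6 of 6 pairs of groups (r = 0.18 to 0.63 over 12793 genes). The 6 pairs reuse the same 4 groups of 2 libraries, so they are not independent. The lowest r, 0.18, was that of control males with mutant males. By the rule set for it the number was then used as a block, although the labels do not say what the number marks. This choice was made from the same expression values that were tested. A blocked p-value therefore holds only if the number marks a real pairing, which is not known. Blocked values stand beside the results they change.

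The 10 genes and the lists were chosen with earlier results of these data known. From each list the text names up to 3 genes with the smallest p in males and up to 2 over both sexes, and for likeness the 3 genes with the highest r; some items these rules select are not reported here.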

Additional observations from a re-analysis of the deposited data

Results flagged for a closer look

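The effect of the active receptor on Thbs1 differed between the sexes with the replicate block, by 0.81 on the log2 scale (males minus females). The effect on Ltbp2 differed with the block by -0.87 on the log2 scale in the same direction of subtraction. For this difference between the sexes the block called 9.33% of all genes. In blocked fits without 1 library the Ltbp2 value ran from -1.13 to -0.54. Without the block, neither passed the quasi-likelihood test of edgeR, and the difference in Thbs1 passed in DESeq2 (adjusted p = 0.0498). The Thbs1 difference did not pass in the likelihood ratio test (adjusted p = 0.0584) or in limma-voom (0.344).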

How the results depend on the processing

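Over 48 log2 differences of the 10 genes, 1191 values under alternatives were computed: 1101 kept their direction and side of the threshold, 55 passed the threshold where the quasi-likelihood test without a block did not, and 35 changed sign, all in fits without 1 library. The 48 hold the genotype comparisons of all 10 genes but the sex comparisons of only some, so sign changes in the others are not counted. Ltbp3 between mutant males and mutant females is not among them. It ran from -0.38 to 0.38 in unblocked fits without 1 library. The replicate block called 2 of the 10 genes in males, 2 for the difference between the sexes and 1 for sex in controls, against 0 without it, and changed no other count. DESeq2 called 1 in males and 1 for the difference between the sexes, the likelihood ratio test 1 in males, and the authors' deposited comparison 1 over both sexes. Fits without 1 library called 0 of the 10 genes in each of these comparisons without the block; over those fits and the same fits with the block, the range was 0 to 4 genes in males, 0 to 1 in females, 0 over both sexes, 0 to 5 for the difference, 0 to 5 for sex in controls and 0 to 1 in mutants. In fits without 1 library, with and without the block, the sign was not fixed over both sexes for Fst (-0.60 to 0.13), Inhba (-0.11 to 0.40), Ltbp1 (-0.040 to 0.15), Ltbp2 (-0.030 to 0.37), Tgfb1 (-0.21 to 0.0025) and Tgfb3 (-0.0092 to 0.21). In females it was not fixed for Fst (-0.21 to 1.16), Ltbp1 (-0.16 to 0.079), Ltbp4 (-0.037 to 0.18), Tgfb1 (-0.11 to 0.28) and Tgfb3 (-0.23 to 0.033). In males it was not fixed for Inhba (-0.60 to 0.38), Ltbp1 (-0.037 to 0.44), Ltbp2 (-0.55 to 0.040) and Ltbp3 (-0.20 to 0.32), nor for the difference between the sexes of Ltbp3 (-0.72 to 0.046) and Tgfb2 (-0.031 to 0.26). With merged exons the mean shares moved to 14.2% for Tgfb1, 58.3% for Tgfb2, 27.5% for Tgfb3, 8.41% for Ltbp1, 26.2% for Ltbp2, 43.7% for Ltbp3 and 21.7% for Ltbp4, because the lengths differ. The causes of the other changes were not tested. Depth limits Inhba and Fst.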
